A study of Homo sapiens with 6 samples.

Results

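The 10 genes described here encode the hypoxia-inducible factors HIF1A, EPAS1 and ARNT, the oxygen-dependent hydroxylases EGLN1, EGLN2, EGLN3 and HIF1AN, and the ubiquitin ligase components VHL, SIAH1 and SIAH2. They are 10 of the 29810 genes in the deposited mRNA-seq table and were found through their Ensembl identifiers. They were chosen by the SIAH2 values of these libraries, which were lower in every library incubated with I3, so the SIAH2 values below are a description and carry no test. Kasumi-1, the single line used, is an acute myeloid leukemia line that carries the RUNX1-RUNX1T1 fusion. It was incubated for 48 h with 0.25 μM I3, a hydroxamate HDAC inhibitor, or with the same amount of the solvent DMSO as control, and each group has 3 libraries. The labels and the methods give 48 h, whereas a figure legend of the study gives a longer incubation. The labels, the paper and the column headers of the deposited table name the compound I3, but the name given to the table as a whole says I13, and the difference could not be settled here. The statistics section says of all experiments that they were repeated, but for sequencing no source says that the 3 libraries of a group came from separate cultures, so a p-value measures only the spread between these libraries, which may be technical.

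HIF proteins are the main transcriptional response of cells to low oxygen. The α subunits, HIF-1α from HIF1A and HIF-2α from EPAS1, are made continuously. With oxygen present, prolyl hydroxylases from the EGLN genes modify them, VHL binds the hydroxylated form and a ubiquitin ligase complex marks it for the proteasome. When hydroxylation stops, the α subunit accumulates, pairs with ARNT and activates genes of glycolysis, angiogenesis and survival. The asparaginyl hydroxylase HIF1AN blocks coactivator binding, and the RING ligases SIAH1 and SIAH2 mark prolyl hydroxylases, in particular the EGLN3 product, for degradation. Much of this control acts on proteins, which mRNA-seq does not measure.

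HIF binds DNA at hypoxia response elements, whose core is ACGTG or GCGTG. RefSeq promoters (GRCh38.p14, from 250 bases before to 50 bases after a start site) were at hand for 9 of the 10 genes, all but VHL, with 12 promoters in all. Both cores were searched on both strands. The palindrome CACGTG, the E-box of MYC-type factors, holds ACGTG on each strand and counts as 2 matches. Matches were found in 7 of the 12 promoters, of 6 genes. Of all 35116 promoters of this length, 48.4% held a match, so the search does not set these genes apart. The stretches below surround the matches in EGLN1, the prolyl hydroxylase gene with the highest FPKM, and in SIAH2, the gene lower after I3. The CACGTG of EGLN2 is given for comparison. Each is 30 bases, written 5′ to 3′ on the strand of the gene, with the matching letters in capitals.
SIAH2, chr3:150763182-150763211, minus strand: ccgcaCACGTGtccaggcgtCACGTccgcg
EGLN1, chr1:231422284-231422313, minus strand: ggggccgtggtgtACGTGcagagcgcgcag
EGLN2, chr19:40799130-40799159, plus strand: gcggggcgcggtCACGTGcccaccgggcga
The SIAH2 promoter had 3 matches, the first of them at -37 from the start site, and EGLN1 had 1 at -13. No match lay in the promoter of ARNT, EGLN3 or HIF1AN. CACGTG also lay in a promoter of SIAH1, and it occurred in 7.26% of all promoters. A match is only a run of letters and shows no binding.

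The depth of the 6 libraries was 17500320 to 18193373 reads, rebuilt from the FPKM values and exon lengths. Markers of myeloid blasts were abundant in every library (MPO at 7740 FPKM or more, KIT at 198 FPKM or more). Of 15 markers of other cell types, 11 had a value. They summed to 31.3 to 34.4 FPKM in control cells and 32.0 to 35.0 FPKM after I3, nearly all from EPCAM, and 8 of the 11 stayed under 1 FPKM in every library. The level of a gene relative to its mean followed the GC content of its transcripts differently between libraries. Across 12939 genes the rank correlation was negative in control 1, I3 1 and I3 3 (-0.446 to -0.232) and positive in control 2, control 3 and I3 2 (0.262 to 0.446). Control 1 also stood apart in HIF target genes, as described at the end, so values without it are given beside the results that it moved most.

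The genes differed widely in level. FPKM is normalized to length and may be compared between genes. VHL was highest, between 29.0 and 33.2 FPKM over the 6 libraries, above 92.5% of the 15616 protein-coding genes in the table. EGLN1, SIAH2 and HIF1A followed at means of 17.2, 14.7 and 13.8 FPKM. Over all libraries the ranges of EGLN1 and SIAH2 overlapped, as did those of SIAH2 and HIF1A. ARNT at 8.46 and HIF1AN at 7.02 FPKM came next, each separate from its neighbours in every library. EGLN2 was near 1.04 FPKM. SIAH1 and EPAS1 had means of 0.401 and 0.280 FPKM with overlapping ranges, and EGLN3 was almost unread. By FPKM, HIF1A was above EPAS1, and EGLN1 was above EGLN2 and EGLN3, in every library. The level of EGLN2 is uncertain for the reason given below.

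**Figure D1:**
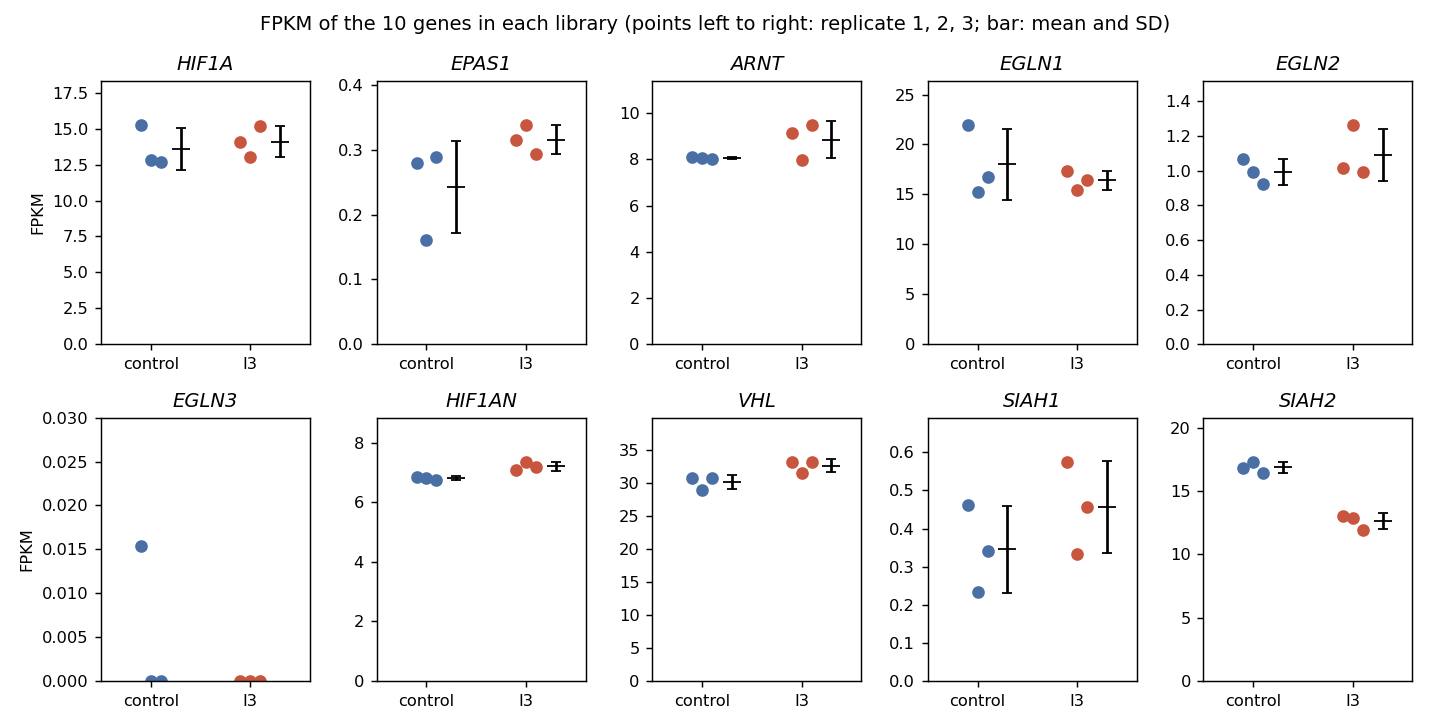
FPKM (y axis, linear, from 0) of the 10 genes in control and I3 libraries, with 1 point per library and the mean and SD beside them, except for EGLN3. SIAH2 is the gene whose I3 points (11.9 to 13.1 FPKM) lie well below its control points (16.4 to 17.3 FPKM), whereas EPAS1, EGLN2, EGLN3 and SIAH1 have axes that end near or below 1.5 FPKM.

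Differences between I3 and control cells were tested with limma on log2(FPKM + 0.5) over 12960 genes whose mean reached 0.5 FPKM, with Benjamini-Hochberg adjustment. Calls required an adjusted p of at most 0.05 together with a fold change whose log2 value was 0.58 or more in size. Of the 10 genes, 7 passed the minimum, and EPAS1, EGLN3 and SIAH1 did not and were taken from a fit without a minimum. None of the 9 genes other than SIAH2 was called, and over all tested genes limma called 0.00% (0 genes), with 639 genes (4.93%) at an unadjusted p under 0.05. The smallest unadjusted p from limma among those 9 genes was 0.0787, for VHL. The study, with another package and the same thresholds, reports genes changed in both directions in its mRNA-seq. Because 0.5 is added, the fitted change of a weakly expressed gene is smaller than the change in its FPKM.

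HIF1A (ENSG00000100644, chromosome 14 from 61695513 to 61748259 on GRCh38) encodes the broadly expressed α subunit. It had 15.3, 12.8 and 12.7 FPKM in control 1, 2 and 3 and 14.1, 13.1 and 15.2 FPKM in I3 1, 2 and 3. The groups overlapped, and the log2 fold change was 0.054 (SE 0.0919, 95% interval -0.16 to 0.27, adjusted p = 0.998 from limma). Without control 1 it was 0.14. The 3 libraries with a negative trend had 14.1 to 15.3 FPKM and the other 3 had 12.7 to 13.1 FPKM, with no overlap. Of all tested genes, 17.1% showed the same separation. HIF1A had a GC content of 39.2%, the lowest of the 10 genes. Once the GC trend had been taken out, its difference was -0.011 on the log2 scale. The part of the GC trend in these values was not tested.

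EPAS1 (ENSG00000116016, chromosome 2 from 46293667 to 46386703), typical of endothelial and some other tissues, had 0.279, 0.162 and 0.290 FPKM in control and 0.315, 0.339 and 0.294 FPKM in I3 libraries. These values stand for 21 to 37 and 39 to 44 reads. The I3 libraries lay above the controls, but the gap was only 0.00403 FPKM, and the log2 fold change of 0.14 (SE 0.114) was not called (adjusted p = 0.898). Scaled by library depth, the ratio of 124 I3 to 94 control reads was 1.30, with an exact 95% interval of 0.985 to 1.72. Intervals of read ratios cover counting error only. Within each library HIF1A was 38.6 to 79.2 times as high as EPAS1.

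ARNT (ENSG00000143437, chromosome 1 from 150809705 to 150876768), the partner of both α subunits, had nearly equal control values of 8.11, 8.05 and 8.04 FPKM. After I3 it had 9.13, 7.96 and 9.50 FPKM, so I3 2 lay below the controls and I3 1 and I3 3 above them. The log2 fold change was 0.12 (SE 0.0772, adjusted p = 0.998). Among libraries with a negative trend I3 exceeded control by 0.19 on the log2 scale, and among those with a positive trend the difference was -0.015. HIF1A was 1.54 to 1.88 times as high as ARNT in every library.

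**Figure D2:**
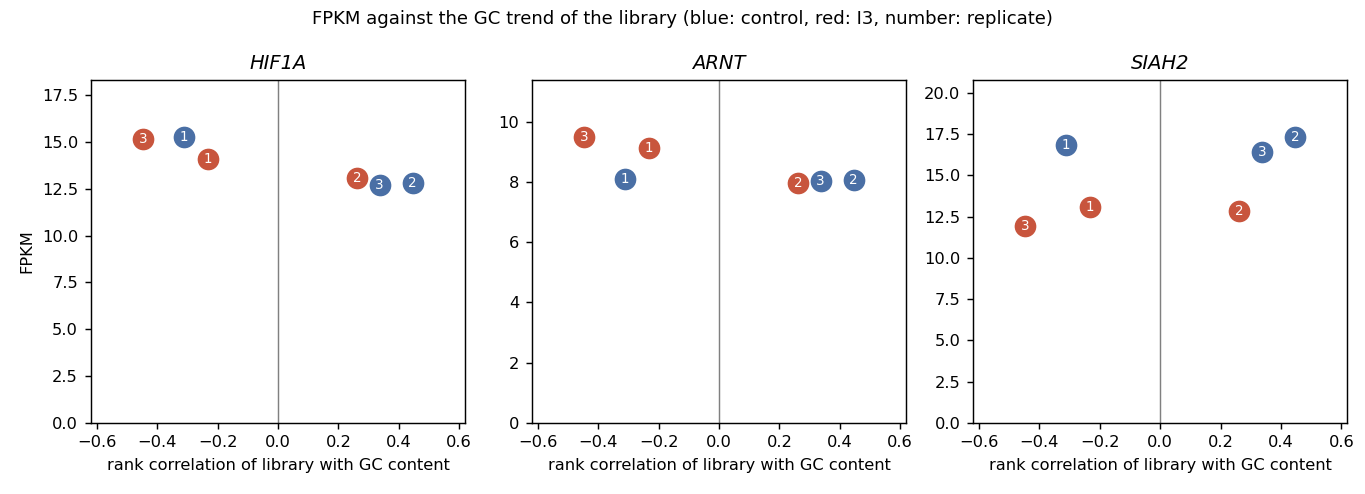
FPKM of HIF1A, ARNT and SIAH2 (y axes, linear, from 0) against the rank correlation of each library with GC content (x axis), with blue points for control and red for I3 and the replicate number inside. HIF1A and ARNT are higher in the libraries left of 0 (for HIF1A 14.1 to 15.3 FPKM against 12.7 to 13.1), as are 17.1% of all tested genes. For ARNT the values are 8.11 to 9.50 against 7.96 to 8.05 FPKM, with control 1 the lowest on the left at 8.11. SIAH2 separates by treatment on both sides, which the way it was chosen fixes.

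EGLN1 (ENSG00000135766, chromosome 1 from 231363751 to 231425044) encodes PHD2, the main oxygen-sensing prolyl hydroxylase in most cells. It had 22.0, 15.2 and 16.8 FPKM in control and 17.3, 15.4 and 16.5 FPKM in I3 libraries. Control 1 was above the other 5 libraries, which spanned 15.2 to 17.3 FPKM. The log2 fold change was -0.12 (SE 0.129, 95% interval -0.42 to 0.19, adjusted p = 0.998 from limma), and it turned to 0.033 without control 1.

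EGLN2 (ENSG00000269858, chromosome 19 from 40798996 to 40808433), which encodes PHD1, had 1.07, 0.991 and 0.921 FPKM in control and 1.02, 1.26 and 0.995 FPKM in I3 libraries. The groups overlapped, with a log2 fold change of 0.089 (SE 0.135). Of its exon length, 30.6% is shared on the same strand with the readthrough gene RAB4B-EGLN2, so the level of EGLN2 is uncertain if reads in shared exons were assigned elsewhere or dropped. EGLN1 was 12.2 to 20.6 times as high as EGLN2, a ratio that carries the same uncertainty.

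EGLN3 (ENSG00000129521, chromosome 14 from 33924231 to 34462774) encodes PHD3, whose gene is a strong HIF target in many cells. It was read only in control 1, with 2 reads (0.0154 FPKM), and was listed at 0 in the other 5 libraries. A count of 0 allows up to 3 reads, about 0.0224 to 0.0233 FPKM in these libraries, so no fold change is given. The prolyl hydroxylase that SIAH ligases are best known to degrade was thus barely detectable as mRNA in either group.

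HIF1AN (ENSG00000166135, chromosome 10 from 100529072 to 100559998), which encodes FIH, had close values in all libraries, at 6.86, 6.83 and 6.76 FPKM in control and 7.07, 7.37 and 7.20 FPKM in I3 libraries. Every I3 library was higher, but the log2 fold change was only 0.076 (SE 0.0584, adjusted p = 0.998). The 95% interval from limma, which takes in the spread between libraries, was -0.061 to 0.21 on the log2 scale and includes 0. From 5037 control and 5415 I3 reads the read ratio, scaled by library depth, was 1.06 (95% interval 1.02 to 1.10, for counting error only).

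VHL (ENSG00000134086, chromosome 3 from 10141008 to 10152220) encodes the part of the ubiquitin ligase that recognizes hydroxylated HIF. It had 30.8, 29.0 and 30.8 FPKM in control and 33.2, 31.5 and 33.1 FPKM in I3 libraries. All I3 values were above all control values, by a gap of 0.691 FPKM. The log2 fold change was 0.11 (SE 0.0540, 95% interval -0.016 to 0.24, adjusted p = 0.998 from limma). It stayed between 0.081 and 0.14 in 18 alternative analyses, although some of these, such as other minimums and the replicate block, cannot move it. Among all tested genes, 5.06% had every I3 library above every control library, and 9.70% had no overlap in either direction. Of the 6 tested genes of the group other than SIAH2, these were HIF1AN and VHL.

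SIAH1 (ENSG00000196470, chromosome 16 from 48356364 to 48448402) had 0.463, 0.234 and 0.340 FPKM in control and 0.576, 0.334 and 0.458 FPKM in I3 libraries. The groups overlapped on 28 to 69 reads per library, with a log2 fold change of 0.18 (SE 0.166, adjusted p = 0.898), which was 0.28 without control 1. The 3 libraries with a negative GC trend were all above the other 3, a separation that 17.1% of all tested genes showed. LONP2, on the opposite strand and at 6.69 to 7.98 FPKM, overlaps 26.7% of the exon length of SIAH1, which matters only if reads were counted without strand. The library kit was a stranded one per the labels, but the sources used here do not give the counting setting.

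SIAH2 (ENSG00000181788, chromosome 3 from 150741127 to 150763477) had 16.9, 17.3 and 16.4 FPKM in control 1, 2 and 3 and 13.1, 12.9 and 11.9 FPKM in I3 1, 2 and 3. The lowest control library exceeded the highest I3 library by 3.36 FPKM, while the SDs were 0.453 and 0.616 FPKM (n = 3 each). The I3 mean was 25.2% below the control mean, a log2 fold change of -0.41 (SE 0.0605) that does not reach the fold threshold of 0.58. From 2338 control and 1775 I3 reads the read ratio, scaled by library depth, was 0.747. In bulk RNA, fewer cells with a transcript and less of it per cell cannot be told apart. The difference was -0.42 in the libraries with a negative GC trend and -0.38 in those with a positive one. With single libraries left out the difference ranged from -0.43 to -0.37. How the gene was chosen fixes its direction and also bears on its size and its evenness over libraries. Control 1 had 16.9 FPKM, the same as the mean of control 2 and 3. Over the tested genes, 4.64% had every I3 library below every control library, and 2.47% had a log2 fold change below that of SIAH2. These values include the ones that chose the gene and are given without a test. SIAH2-AS1, on the opposite strand, overlaps 4.05% of its exon length and stayed at or below 0.637 FPKM.

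Relative to its neighbours in the pathway, SIAH2 was 1.10 to 1.35 times as high as HIF1A in control and 0.785 to 0.985 times as high in I3 libraries. VHL was 1.67 to 1.88 times as high as SIAH2 in control and 2.45 to 2.78 times as high after I3. Both ratios contain SIAH2 and so restate its difference. The ratio of SIAH2 to EGLN1 overlapped between the groups, at 0.767 to 1.14 in control and 0.724 to 0.833 after I3. The overlap came from control 1 (0.767), since control 2 and 3 had 1.14 and 0.978. SIAH2 was 22.7 to 74.1 times as high as SIAH1 in all libraries, so by FPKM it was the more abundant of these genes in both groups. The size of this ratio carries the doubt about SIAH1 reads given above.

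**Figure D3:**
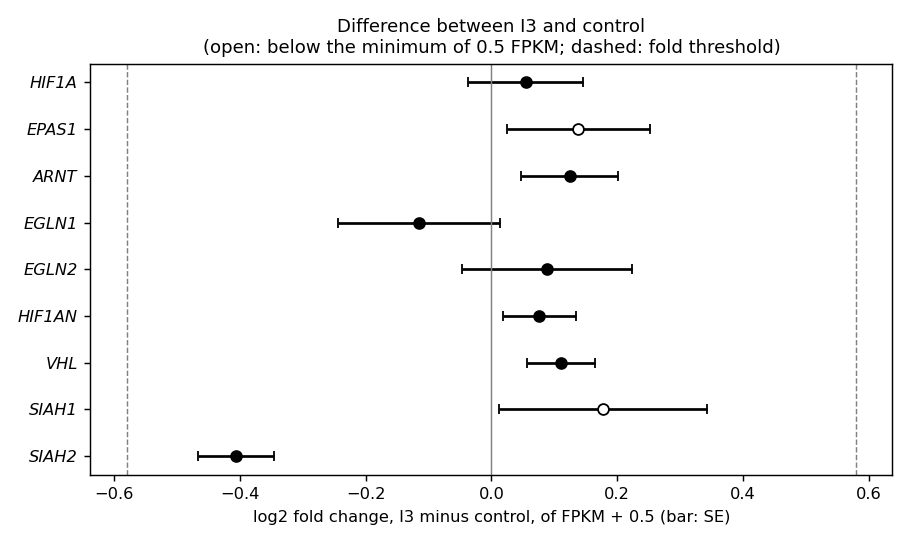
Log2 fold change between I3 and control of 9 genes (x axis, on FPKM + 0.5) with its SE, filled where the gene passed the minimum of 0.5 FPKM and open where it did not. All 9 lie inside the dashed fold threshold of 0.58, with SIAH2 at -0.41 and the others between -0.12 and 0.18.

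The 5 tested genes whose pattern was nearest to that of SIAH2, by the root mean square difference of mean-centred log2(FPKM + 0.5) over 6 libraries, were HPCAL1 (0.0434), IER5 (0.0536), LAMB2P1 (0.0608), MAP7D1 (0.0681) and KDELR3 (0.0707). HPCAL1, a calcium sensor protein gene, had 6.38, 6.22 and 6.05 FPKM in control and 4.92, 4.96 and 4.60 FPKM after I3. IER5, an immediate early gene, had 8.22, 9.04 and 8.27 FPKM in control and 7.12, 6.49 and 5.79 FPKM after I3. In both the order of the groups was that of SIAH2, as choosing them by likeness fixes. LAMB2P1 is an unprocessed pseudogene, so the assignment of its reads is uncertain.

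None of the partners of the hydroxylation and VHL step was called. All 11 genes listed were tested, with 4 log2 fold changes above 0 and 7 below, where 54.2% of all tested genes were above 0 and 45.8% below. The median was -0.031, against 0.011 over all tested genes, and the range was -0.13 to 0.090. The sign of this median was not stable, since it was -0.060 without control 1 and 0.018 without control 2. Other subunits of the VHL complex were among them. CUL2 had means of 18.5 and 19.1 FPKM in control and I3 cells, ELOB had 39.6 and 39.0 FPKM, and RBX1 had 18.3 and 18.9 FPKM. UBE2M, which attaches NEDD8 to cullins, was the highest at 67.7 and 61.9 FPKM.

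Of 13 other HIF subunits, coactivators and regulators, 11 were in the table and tested, and 0 were called. Their median log2 fold change was -0.017, and -0.066 without control 1. In 3 of the 11 genes the groups did not overlap (CITED4 and PKM with I3 below, SENP1 with I3 above), beside 9.70% of all tested genes, and the log2 fold changes of PKM and SENP1 were -0.092 and 0.057. CITED4, an inhibitor of HIF that competes for the coactivators CREBBP and EP300, had the lowest value. It had 14.5, 13.5 and 12.3 FPKM in control and 12.0, 8.07 and 2.80 FPKM in I3 libraries. The groups did not overlap, but the I3 libraries differed so much among themselves that the log2 fold change of -0.98 had an SE of 0.431 (unadjusted p = 0.0563, adjusted p = 0.998 from limma). Its relative CITED2 had means of 99.5 and 88.2 FPKM with overlapping groups. The chaperones HSP90AB1 (1110 and 1076 FPKM) and HSP90AA1 (323 and 324 FPKM) and the scaffold RACK1 (384 and 380 FPKM) were the most abundant of this list.

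Among partners and substrates of SIAH ligases, 16 of 17 listed genes were tested and 0 were called, with a median log2 fold change of 0.017. HIPK2, a nuclear kinase that SIAH ligases mark for degradation, was the gene with an unadjusted p under 0.05 (0.0314, adjusted p = 0.980 from limma). It had 3.72, 3.95 and 3.91 FPKM in control and 4.26, 4.49 and 4.67 FPKM in I3 libraries, a log2 fold change of 0.19 (SE 0.0717). At an unadjusted p under 0.05 limma gave 2.08% of all tested genes as higher and 2.85% as lower, so a single gene among 16 allows no statement about the list. HIPK2 and APC were the 2 of 16 genes with every I3 library above every control, beside 5.06% of all tested genes. CACYBP, which bridges SIAH1 to a larger ligase complex, had means of 33.3 and 33.8 FPKM, and the corepressor NCOR1 had 12.4 and 12.8 FPKM.

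Most HIF target genes had a fold change below 0, and this rested on control 1. Of 26 target genes, 19 were tested and 0 were called (smallest adjusted p = 0.998 from limma). The log2 fold change was below 0 for 16 of the 19, where 45.8% of all tested genes were below 0, and its median was -0.11. Without control 1, 8 were below 0 and 11 above, and the median was 0.0062, beside 0.018 over all tested genes. The 2 prolyl hydroxylase genes EGLN1 and EGLN3 are in this list.

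Control 1 held the highest value of the 6 libraries for 16 of the 19 tested targets, where it held the highest for 22.9% of all tested genes. This was noticed after the values had been seen and is given without a test. PFKFB4, a regulator of glycolysis, had 7.35 FPKM in control 1 and 1.34 to 1.94 FPKM in the other 5 libraries. DDIT4, an mTOR inhibitor induced by stress and low oxygen, had 10.3 FPKM in control 1 and 2.40 to 3.16 FPKM elsewhere. BNIP3, a mitophagy receptor, had 12.3 against 5.47 to 6.31 FPKM. All 3 were at least 2.09 times as high in control 1 as in the mean of control 2 and 3, while their I3 values lay within or close to the range of those controls.

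Several other targets were also highest in control 1. The collagen prolyl hydroxylase gene P4HA1 had 37.6 FPKM in control 1 and 19.7 to 25.0 FPKM in the other libraries. The glucose transporter SLC2A3 had 12.9 FPKM against 7.71 to 9.30 FPKM. VEGFA, which encodes the angiogenic ligand that the study followed, had 5.69 FPKM in control 1, but I3 1 was close at 5.64 FPKM. Its means were 4.92 FPKM in control and 4.87 FPKM in I3 cells, with overlapping groups. The log2 fold change was -0.015 (adjusted p = 0.999 from limma). The study, with its own analysis of the mRNA-seq, reports VEGF-A as markedly lower after I3, and also as decreased by RT-PCR and western blotting. Its figure legend gives a longer incubation than 48 h for RT-PCR and western blotting, and western blotting measures protein. ADM, below the minimum, had 30 reads in control 1 and 1 to 8 reads in each other library, at 0.625 FPKM beside a mean of 0.156 FPKM in control 2 and 3. ENO1, MXI1 and TFRC were the tested targets not highest in control 1. In ENO1 and LDHA, enzymes of glycolysis, every I3 library was below every control, with log2 fold changes of -0.11 and -0.14, 2 of 19 genes beside 4.64% of all tested genes. HIF1A mRNA was also highest in control 1, at 15.3 FPKM beside a mean of 12.7 FPKM in control 2 and 3, with I3 3 close at 15.2 FPKM.

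**Figure D4:**
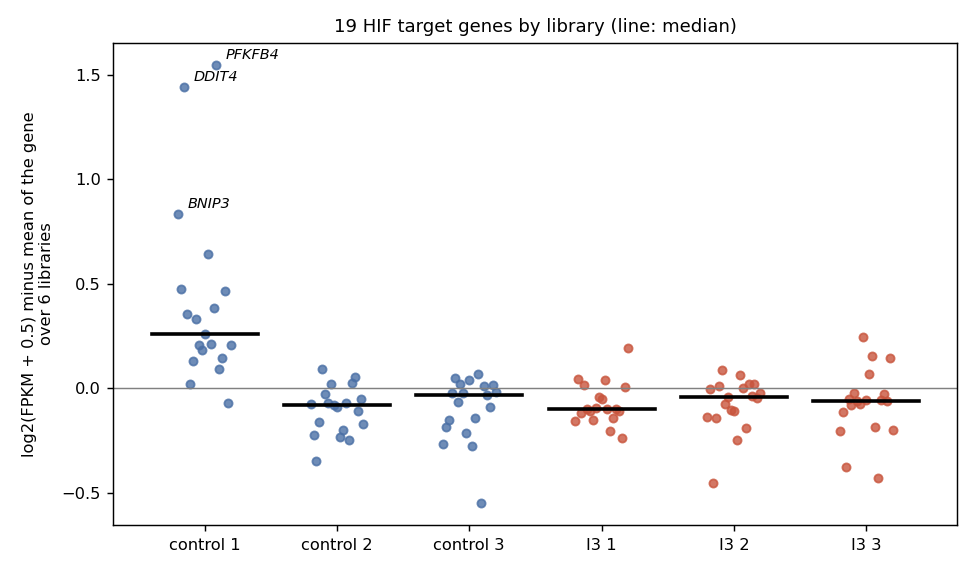
Log2(FPKM + 0.5) of 19 HIF target genes in each library minus the mean of the gene over the 6 libraries (y axis), with 1 point per gene and a line at the median of the library. The median is 0.26 in control 1 and between -0.098 and -0.030 in the other 5 libraries, and PFKFB4, DDIT4 and BNIP3 lie farthest up in control 1.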

How the data were processed

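mRNA-seq was performed for 3 control and 3 I3 libraries of Kasumi-1 cells. Per the labels, stranded polyadenylated libraries were made, and the submitters' processing notes name Trimmomatic, HISAT2, Cufflinks and HTSeq with the build hg38, without versions. The authors deposited FPKM values, normalized to gene length and library total, with no read counts. The methods name a package for counts, so limma 3.58.1 in R 4.3.3 (lmFit, eBayes with trend, two-sided) was used here on log2(FPKM + 0.5). Exon lengths, GC content and coordinates came from GENCODE release 29 (29703 of 29810 identifiers), symbols for 23487 and promoters from RefSeq. Multiplied by exon length, FPKM gave whole reads (within 0.1) for 95.8% of 26519 genes above 0. Genes used by every cell were above 0 (HPRT1 at 40.6 FPKM or more). Libraries of a group were not copies (chi-square per degree of freedom at least 4.93 over 10835 genes). Members and lists were chosen with earlier results of these data known. Named genes were the 10 members, genes of 4 lists with an unadjusted p under 0.05 or high levels, and 5 genes nearest to SIAH2, and other list genes named were chosen after their values were seen. The procedure was tested on simulated data. Alternatives were other pseudocounts, minimums, scalings, GC removal (lowess, span 0.3), voom on rebuilt reads, the replicate block, each library left out and, added later, the GC set of the library as a term. Python 3.11.15, pandas 2.3.3, scipy 1.17.1 and matplotlib 3.10.9 were used.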

Additional observations from a re-analysis of the deposited data

How the results depend on the processing

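With all 6 libraries limma called 0 genes in every alternative, and with single libraries left out 0 to 1 gene higher (1 without control 1) and 0 to 2 lower (2 without I3 1, 1 without I3 2). The 639 genes at an unadjusted p under 0.05 became 302 with a mean of at least 5 FPKM and 1038 without a minimum, where fewer or more genes are tested, and 462 to 1420 with single libraries left out (1420 without control 1, the cause was not tested). The SIAH2 difference ranged from -0.43 to -0.37 over 18 alternatives, some of which, such as other minimums and the replicate block, cannot move it. The choice of the gene fixes the direction of this difference and also bears on its size. HIF1A turned to -0.011 after removal of the GC trend and to -0.014 with the GC set of the library as a term, a setting added after the data were seen. EGLN1 turned to 0.033 without control 1 and was -0.22 without control 2. The median of the hydroxylation and VHL partner list turned above 0 without control 2 (0.018), I3 1 (0.0039) or I3 3 (0.00099) and with the GC set (0.0047), and that of the HIF target list without control 1 (0.0062). The median of the HIF coactivator and regulator list became -0.045 with a mean of at least 5 FPKM, and -0.066 to -0.00505 with libraries left out. That of the SIAH partner list became 0.035 with the GC set, -0.0075 after GC removal, and -0.0067 to 0.050 with libraries left out. The cause was not tested. No list had a called gene in any alternative. Genes with few reads, such as EPAS1, SIAH1 and EGLN3, are limited by depth. When the replicate number was added as a block, limma called no gene, and the count with unadjusted p below 0.05 was 856. Every replicate number holds a control and an I3 library, so the block cannot move a fold change. The -0.41 of SIAH2 under this block was therefore fixed by the design and is no check of it. Same-numbered libraries shared deviations weakly (correlations 0.063, 0.15 and -0.024), so the numbers were not taken as pairs.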
